A study of Mus musculus with 12 samples.

Results

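The genes described here are the 4 Notch receptors, Notch1 to Notch4, their ligands Jag1, Jag2, Dll1, Dll3 and Dll4, and Lfng, a sugar-transferring enzyme that modifies the receptors. They were chosen by symbol: every probe set of the array whose only annotated gene is 1 of these 10 was taken, which gave 20 of 34945 probe sets with a single gene symbol. Each gene is represented by its probe set with the highest mean over all arrays, out of 18193 genes measured in this way, and the other 10 probe sets are given beside it. RNA came from tumours of 3 mouse lung adenocarcinoma lines, measured on 12 Affymetrix arrays, 4 per line. The 344SQ line was grown from a subcutaneous site of 1 mouse (344) and is called highly metastatic. The 393LN line came from a mediastinal lymph node of another mouse (393) and is called intermediately metastatic. The 393P line came from the primary lung tumour of that same mouse 393 and is called non-metastatic. All 3 lines share the alleles p53R172H∆g/+ and K-rasLA1/+, a mutant p53 and an activated K-ras, and the labels name no treatment. Each is a mass population passaged in culture and then grown as a tumour in syngeneic mice, so host cells contribute RNA. There is 1 line per metastatic grade, and 344SQ also differs from both 393 lines in its mouse of origin, so grade, mouse and line cannot be told apart. The labels do not say whether the 4 arrays of a line come from separate tumours, so p-values measure the spread between these samples, which may be technical.

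Notch receptors are single-pass membrane proteins that bind Jagged or Delta-like ligands on a neighbouring cell. Binding and a pull from the ligand-bearing cell expose the receptor to ADAM proteases and then to gamma-secretase, and the freed intracellular part joins the DNA-binding protein RBPJ and a Mastermind coactivator to switch on genes such as Hes1, Hey1 and Nrarp. Lfng, Mfng and Rfng, the Fringe enzymes, extend sugars on the receptor's extracellular repeats and so shift its preference between Delta-like and Jagged ligands. In the lung the pathway guides the choice between secretory and ciliated cell fates, and in tumours its members are expressed by cancer cells as well as by vessels.

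Lfng, the receptor gene Notch2 and the receptor gene Notch3 are the members on which the results turn, and the 250 bases before the RefSeq start of each (build GRCm38.p6) are shown together with those of Rbpj, which encodes the pathway's DNA-binding protein. Capitals mark each match to the RBPJ core TGGGAA, read on either strand, or to the E-box CACCTG that Zeb1 and Snai factors bind, read on either strand. The motifs do not overlap in these windows.
Lfng, chr5:140607091-140607340, plus strand: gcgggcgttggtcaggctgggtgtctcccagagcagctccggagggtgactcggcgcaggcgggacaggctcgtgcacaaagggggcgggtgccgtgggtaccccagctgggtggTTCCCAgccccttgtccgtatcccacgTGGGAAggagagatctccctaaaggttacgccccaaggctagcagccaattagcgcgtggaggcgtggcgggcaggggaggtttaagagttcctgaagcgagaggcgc
Notch2, chr3:98013288-98013537, plus strand: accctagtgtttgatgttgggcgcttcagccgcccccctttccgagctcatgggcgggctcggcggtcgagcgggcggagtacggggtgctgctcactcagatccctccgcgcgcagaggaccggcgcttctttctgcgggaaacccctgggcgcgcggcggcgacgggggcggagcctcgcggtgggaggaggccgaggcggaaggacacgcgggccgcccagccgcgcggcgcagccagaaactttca
Notch3, chr17:32166891-32167140, minus strand: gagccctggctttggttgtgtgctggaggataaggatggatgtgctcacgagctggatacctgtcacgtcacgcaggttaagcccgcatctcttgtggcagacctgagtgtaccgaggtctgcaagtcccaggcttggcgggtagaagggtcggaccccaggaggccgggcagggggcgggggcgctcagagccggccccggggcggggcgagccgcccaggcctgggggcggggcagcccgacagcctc
Rbpj, the first of its starts, chr5:53590096-53590345, plus strand: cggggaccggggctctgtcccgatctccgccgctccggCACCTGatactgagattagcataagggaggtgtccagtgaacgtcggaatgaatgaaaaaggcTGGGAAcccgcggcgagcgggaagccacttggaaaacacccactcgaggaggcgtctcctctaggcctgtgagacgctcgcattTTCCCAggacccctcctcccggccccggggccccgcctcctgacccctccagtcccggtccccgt

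Lfng was the only 1 of the 10 genes with an RBPJ core in this window, and all 10 had a promoter in the RefSeq table. It held 2, which begin 135 and 108 bases before the start and lie on opposite strands. Of 32851 promoter windows of the same length, 21.6% held at least 1 such core. The E-box was found for 2 of the 10 genes, Dll1 and Dll3. Dll1 has 2 starts, and only the window of 1 of them held it. Counted by window rather than by gene, 17.2% of all windows held it. Rbpj held 2 RBPJ cores, 149 and 65 bases before this start, and 1 E-box. These matches describe letters only.

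Values are given as log2(intensity + 16), called the level, on which the table's floor is 4.09, and a difference of levels is called the log2 change. Levels of different genes are not compared, because each probe set has its own response. Rose and fell are used where limma's test, fitted over all 18193 genes and 12 arrays, gave a Benjamini-Hochberg adjusted p under 0.05. No member was at the floor on any array. Array medians lay between 7.19 and 7.29, while actin probes at the transcript's 3' end over those at its 5' end, which track RNA integrity, read 1.47 on 393P replicate 1 and 1.04 to 1.19 elsewhere. Epithelial markers, which check the tumour label, were present in every sample, with a mean level over 6 genes of 12.82 to 13.17 in 344SQ, 13.44 to 13.69 in 393LN and 13.49 to 13.81 in 393P. Epcam, an epithelial adhesion gene, was the 1 of these 6 that fell in 344SQ.

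In 344SQ against 393P, 3 of the 10 genes changed: Notch2 rose, and Notch3 and Lfng fell. Of all genes 10.5% were called in this comparison, 4.86% higher and 5.62% lower. Against 393LN, 344SQ differed in 2 members, Notch2, which rose, and Lfng, which fell, where 10.9% of all genes were called, 3.99% higher and 6.92% lower. Between 393LN and 393P limma called 0 of 10, against 2.45% of all genes (1.75% higher and 0.698% lower). The median log2 change of the 10 genes was 0.06, -0.02 and 0.02 in these comparisons, beside -0.00, -0.02 and 0.01 over all genes. The 4 arrays of a line did not overlap those of the other for 3, 2 and 2 of the 10 genes, against 16.7%, 17.4% and 10.3% of all genes. The comparisons share arrays, so they are not independent of each other.

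**Figure D1:**
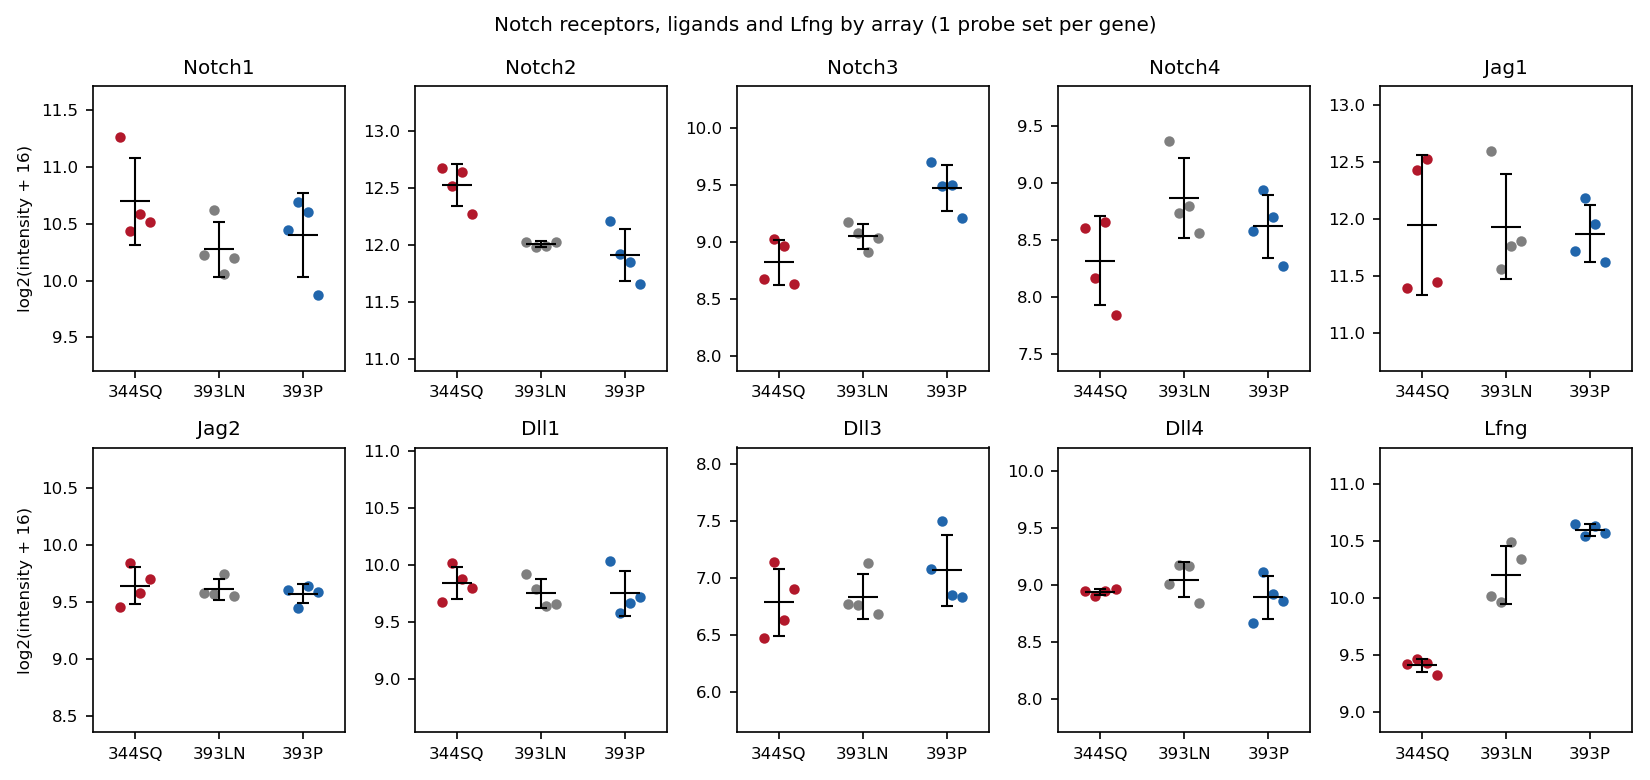
Level, log2(intensity + 16), of each of the 10 genes on every array, by line, with 4 points per line, the mean as a horizontal bar and the SD as whiskers; every panel spans the same number of log2 units. The 4 Lfng points of 344SQ, at 9.32 to 9.46, lie below all those of 393LN and 393P, and the 4 Notch2 points of 344SQ, at 12.27 to 12.68, lie above all others.

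Lfng (chr5:140607341-140615545), which encodes the Lunatic Fringe glycosyltransferase, had the largest change of the 10 genes in both comparisons with 344SQ, on the chosen probe sets. Its level was 9.42, 9.46, 9.43 and 9.32 in 344SQ, 10.02, 9.96, 10.49 and 10.34 in 393LN and 10.65, 10.54, 10.63 and 10.57 in 393P. None of the lines overlapped, and the 4 values of 344SQ lay within 0.14 of each other. The gene was 2.28-fold lower in 344SQ than in 393P (log2 change -1.19 ± 0.12 SE, n = 4 per line, limma adjusted p = 7.44e-05). It was 1.73-fold lower in 344SQ than in 393LN (log2 change -0.79 ± 0.12, limma adjusted p = 0.00152). The 393LN samples lay between the other lines, and their difference from 393P did not pass (log2 change -0.40, 95% interval -0.65 to -0.14, limma adjusted p = 0.112). In a bulk tumour, fewer cells that express a gene and less RNA per cell cannot be told apart. Both calls of Lfng held without any 1 array, with a highest adjusted p of 0.000525 against 393P and 0.00579 against 393LN.

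The other Lfng probe set, 1449943_at, was dimmer and varied more within the 393 lines. It read 6.69, 6.68, 6.61 and 6.63 in 344SQ, 6.69, 6.87, 8.10 and 7.30 in 393LN and 5.96, 7.29, 7.30 and 7.30 in 393P. The 393P samples were thus above all of 344SQ except for replicate 1, which has the actin ratio of 1.47 and was below. Its log2 change in 344SQ against 393P was -0.30 (95% interval -1.03 to 0.42, limma adjusted p = 0.69) with all arrays and -0.64 ± 0.26 without 393P replicate 1 (adjusted p = 0.187). Against 393LN it was -0.58 (adjusted p = 0.339). With each array left out in turn, it ranged from -0.64 to -0.19 against 393P and from -0.77 to -0.30 against 393LN. None of these settings gave a call. With the mean of both probe sets Lfng stayed called, at -0.75 against 393P and -0.69 against 393LN (adjusted p = 0.0368 and 0.0496). With this dimmer probe set alone it was not.

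Among the receptors, Notch2 (chr3:98013538-98150367) rose in 344SQ. Notch2 is a broadly expressed receptor. Its level was 12.68, 12.52, 12.64 and 12.27 in 344SQ, 12.03, 11.98, 11.99 and 12.03 in 393LN and 12.21, 11.92, 11.85 and 11.66 in 393P. Every 344SQ sample was above every sample of the 393 lines, which overlapped each other. The gene was 1.54-fold higher in 344SQ than in 393P (log2 change 0.62 ± 0.13 SE, limma adjusted p = 0.00892) and 1.44-fold higher than in 393LN (0.53 ± 0.13, adjusted p = 0.0216). Against 393P the call held without any 1 array, with a highest adjusted p of 0.031. Against 393LN it ended without 344SQ replicate 1, 2 or 3 (adjusted p = 0.0615, 0.0549 and 0.0574) and without 393LN replicate 2 or 3 (0.0525 and 0.0509), with a log2 change of 0.48 to 0.61 over all such settings. The gene's other probe set, 1451889_at, had a mean level of 6.97 and did not follow, with log2 changes of 0.10 in 344SQ against 393P and -0.04 against 393LN (adjusted p = 0.852 and 0.944). With the mean of both, the change was 0.36 against 393P (adjusted p = 0.0393) and 0.25 against 393LN (adjusted p = 0.145).

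Notch3 (chr17:32120820-32166896), a receptor best known in the muscle cells and pericytes of vessels, fell in 344SQ against 393P. Its level was 8.67, 9.02, 8.96 and 8.63 in 344SQ, 9.17, 9.08, 8.91 and 9.03 in 393LN and 9.70, 9.49, 9.50 and 9.21 in 393P. The 393P samples were above all others, while 344SQ and 393LN overlapped. The gene was 1.58-fold lower in 344SQ than in 393P (log2 change -0.66 ± 0.13 SE, limma adjusted p = 0.00716), and this held without any 1 array (highest adjusted p 0.0239). The change in 344SQ against 393LN was -0.23 (95% interval -0.51 to 0.05, adjusted p = 0.3), and in 393LN against 393P it was -0.43 (-0.71 to -0.15, adjusted p = 0.112). Its other probe set, 1421964_at, moved the same way and was called too in 344SQ against 393P (log2 change -0.90 ± 0.19, adjusted p = 0.0133 over all probe sets). That probe set read 6.20, 6.46, 6.92 and 6.56 in 344SQ, 6.74, 6.91, 7.41 and 7.04 in 393LN and 7.72, 7.48, 7.46 and 7.07 in 393P. Its 344SQ and 393P samples did not overlap, while 393LN overlapped both.

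Since vessel-wall cells express Notch3, 10 pericyte and smooth muscle markers were set beside it. Their summed intensity was 10500 to 15900 in 344SQ, 11800 to 14600 in 393LN and 12800 to 18000 in 393P. In any comparison 0 of 10 was called, where 10.5%, 10.9% and 2.45% of all genes were. The smooth muscle marker Cnn1 was at the floor on at least 1 array. The median log2 change of these markers in 344SQ against 393P was -0.18. Their part in the Notch3 difference was not tested.

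Notch1 and Notch4 were not called. Notch1, the receptor most often studied in leukaemia and epithelia, was at 11.26, 10.43, 10.58 and 10.51 in 344SQ, 10.22, 10.62, 10.06 and 10.20 in 393LN and 10.44, 10.69, 10.60 and 9.87 in 393P. Its lines overlapped, and 344SQ replicate 1 was the highest sample. The log2 change was 0.29 in 344SQ against 393P (95% interval -0.18 to 0.77, adjusted p = 0.488) and 0.42 against 393LN (-0.06 to 0.89, adjusted p = 0.261). Without 344SQ replicate 1 these were 0.10 and 0.23, and without 393P replicate 4 the change against 393P was 0.12. On the other probe set, 1418633_at, these changes were 0.02 and 0.33.

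Notch4, a receptor of endothelial cells, was at 8.61, 8.17, 8.66 and 7.84 in 344SQ, 9.37, 8.74, 8.80 and 8.56 in 393LN and 8.58, 8.94, 8.70 and 8.27 in 393P. The lines overlapped in every pair. The log2 change in 344SQ against 393LN was -0.55 (95% interval -1.03 to -0.07), with an unadjusted p of 0.0292 and a limma adjusted p of 0.141, and in 344SQ against 393P it was -0.30 (adjusted p = 0.48). Its 3 probe sets disagreed. The dim 1436901_at read 5.83 to 6.24 in 344SQ, 6.02 to 6.25 in 393LN and 6.43 to 6.73 in 393P, and it was called lower in 344SQ and in 393LN than in 393P (log2 changes -0.50 and -0.53, adjusted p = 0.027 and 0.0496 over all probe sets). The first of these calls ended without 344SQ replicate 3 (0.068) or 393P replicate 1, 2 or 3 (0.0528, 0.0714 and 0.0748). The second ended without any of 11 arrays, with a highest adjusted p of 0.132. The third probe set, 1456263_at, had a change of 0.25 in 344SQ against 393P (adjusted p = 0.305).

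**Figure D2:**
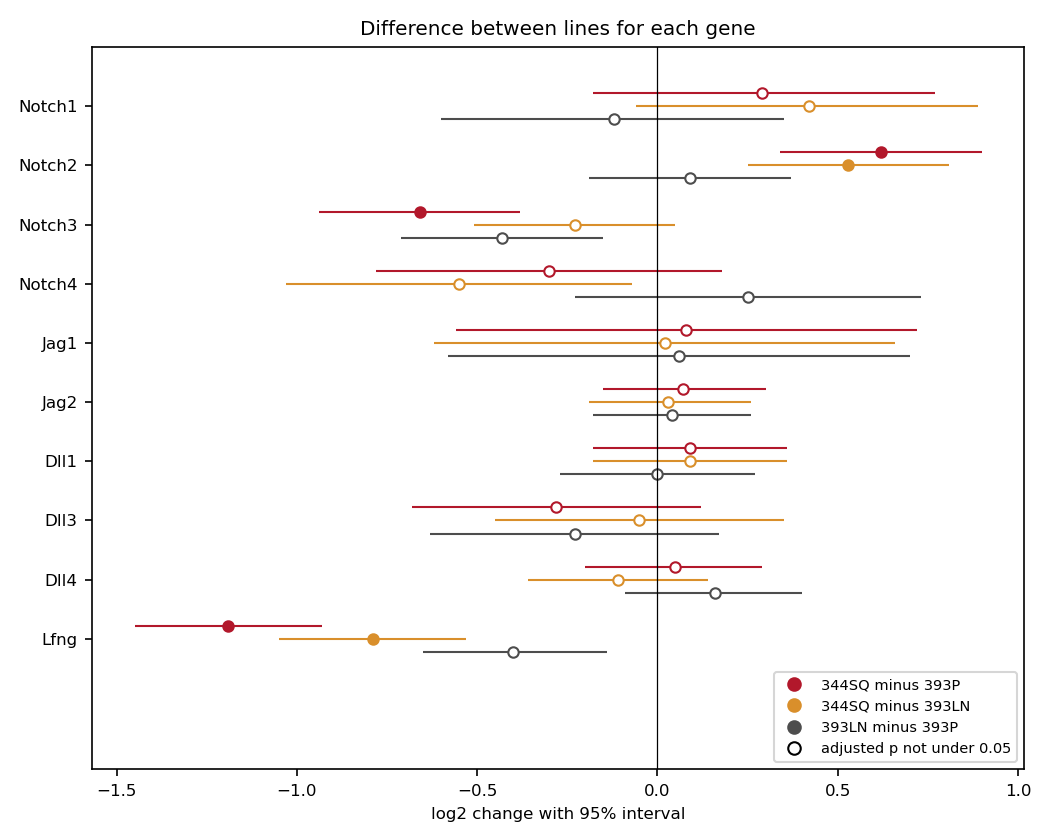
Log2 change of each of the 10 genes in the 3 comparisons, with its 95% interval from limma (n = 4 arrays per line); filled points have an adjusted p under 0.05. The filled points are Notch2 and Lfng in both comparisons with 344SQ and Notch3 in 344SQ against 393P.

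None of the 5 ligand genes was called in any comparison, where 10.5%, 10.9% and 2.45% of all genes were. Jag1, a ligand of both epithelium and vessels, had the widest intervals of the 10 genes. Its level was 11.39, 12.43, 12.53 and 11.45 in 344SQ, 12.60, 11.56, 11.76 and 11.81 in 393LN and 11.72, 12.18, 11.96 and 11.62 in 393P. In 344SQ the samples fell into a high and a low pair, and the lines overlapped. The log2 change was 0.08 in 344SQ against 393P, with a 95% interval of -0.56 to 0.72 that leaves room for changes of either sign. On all 3 Jag1 probe sets, 344SQ replicate 3 was the highest 344SQ sample, and the other probe sets had changes of 0.37 and 0.50 in 344SQ against 393P. These became 0.09 and 0.16 without 393P replicate 1, which read 7.94 on 1421105_at and 9.75 on 1421106_at, against 8.63 to 9.54 and 10.73 to 11.52 on the other 393P arrays.

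Jag2, a ligand that has been studied in lung adenocarcinoma of this mouse model as a promoter of metastasis, was at 9.46, 9.84, 9.58 and 9.70 in 344SQ, 9.58, 9.57, 9.75 and 9.55 in 393LN and 9.61, 9.45, 9.64 and 9.59 in 393P. The lines overlapped throughout. The log2 change in 344SQ was 0.07 against 393P (95% interval -0.15 to 0.30, adjusted p = 0.756) and 0.03 against 393LN (-0.19 to 0.26, adjusted p = 0.887). These are among the narrowest intervals of the 10 genes. The dimmer probe set 1426431_at had changes of 0.41 and 0.43, neither called, and read 8.03 on 344SQ replicate 4 and 6.44 to 7.04 on the other 344SQ arrays.

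Dll1, a Delta-like ligand of many epithelia, was at 9.68, 10.02, 9.88 and 9.80 in 344SQ, 9.92, 9.79, 9.64 and 9.66 in 393LN and 10.04, 9.58, 9.67 and 9.72 in 393P. Its lines overlapped, and the log2 change in 344SQ was 0.09 against either 393 line (95% interval -0.18 to 0.36 in both). Dll3, which differs from the other ligands in acting inside the expressing cell and as an inhibitor, was among the dimmest 50% of all genes. It read 6.47 to 7.14 in 344SQ, 6.68 to 7.13 in 393LN and 6.83 to 7.50 in 393P, with a log2 change of -0.28 in 344SQ against 393P (95% interval -0.68 to 0.12). These ranges overlapped.

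Dll4, the ligand of sprouting vessel tips, was at 8.94, 8.90, 8.94 and 8.96 in 344SQ, 9.01, 9.17, 9.16 and 8.84 in 393LN and 8.66, 9.11, 8.92 and 8.86 in 393P. The 344SQ samples lay inside the range of each 393 line. The log2 change was 0.05 in 344SQ against 393P (95% interval -0.20 to 0.29) and -0.11 against 393LN (-0.36 to 0.14). The other probe set, 1421826_at, had changes of -0.06 and -0.47 (adjusted p over all probe sets not under 0.05).

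Notch4 and Dll4 are expressed by vessels, so 16 endothelial markers were set beside them. Their summed intensity was 9870 to 13100 in 344SQ, 8070 to 11800 in 393LN and 7900 to 11300 in 393P, and none was at the floor. In 344SQ against 393P 1 of 16 rose, the endothelial phosphatase gene Ptprb, and against 393LN 2 of 16 rose, Ptprb and the VEGF receptor gene Flt1. Of all genes 4.86% and 3.99% were higher in these comparisons. The Flt1 call came from 1 of its 4 probe sets (1.32); the other changes were 0.18, 0.00 and -0.02, and with the mean of all 4 it was not called (0.37, adjusted p = 0.305). None of the 16 fell. The list's median log2 change was 0.03 against 393P and -0.06 against 393LN. Of 10 macrophage markers 4 fell in 344SQ against 393P and 2 fell against 393LN, where 5.62% and 6.92% of all genes were lower. Aif1 and Tyrobp fell in both, while the calls of Fcer1g and Cd14 against 393P ended in 7 and 6 of the 12 settings that leave an array out, and that of Tyrobp against 393LN in 9. Not every macrophage marker went down. Their log2 changes ranged from -1.26 to 0.68 against 393P (median -0.72) and from -1.03 to 0.48 against 393LN (median -0.51), and 0 rose. The macrophage sum was 16300 to 24700 in 344SQ, 21700 to 32400 in 393LN and 26200 to 37700 in 393P. Of 10 fibroblast markers 1, Col5a1, rose against 393P, near the share of all genes, and its call ended in 6 of those 12 settings; 0 was called against 393LN. The median log2 change of the fibroblast list was 0.38 against 393P and 0.48 against 393LN, beside -0.00 and -0.02 over all genes. Its changes ranged from 0.17 to 0.83 and from 0.18 to 0.64, so every marker had a higher mean in 344SQ. The fibroblast sum was 49100 to 60600 in 344SQ, 34400 to 51900 in 393LN and 33500 to 47300 in 393P. Of 8 skin markers 1, Lor, fell against both 393 lines, with a list median of -0.11 against 393P and -1.04 against 393LN, and the sum was 1360 to 3300 in 344SQ, 1700 to 11600 in 393LN and 1590 to 4540 in 393P. The calls of Lor ended in 10 of 12 such settings against 393P and in 4 against 393LN. Of 9 T and B cell markers 1, Cd2, rose against 393P, and the sum was 740 to 2500 in 344SQ, 1490 to 1700 in 393LN and 1060 to 1310 in 393P.

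Genes of a list for the microRNA miR-200 and the mesenchymal transition also moved with line. Of 8, 6 rose in 344SQ against 393P and 3 against 393LN, where 4.86% and 3.99% of all genes were higher, and 0 was called in 393LN against 393P. The calls of Snai1 and Twist1 against 393P ended in 7 and 5 of the 12 settings that leave an array out. That of Snai2 against 393LN ended in 1. Zeb1, a repressor of epithelial genes that binds the E-box marked above, rose by 1.29 and 0.98 (limma adjusted p = 0.000122 and 0.00116). Its dimmer probe sets had changes of 0.05, 0.22 and 1.34 against 393P, of which only the last was called (adjusted p = 0.0476 over all probe sets). Against 393LN their changes were 0.37, 0.16 and 1.32, with none called. Snai2, which binds the same motif, rose by 0.94 and 0.79 (adjusted p = 0.0072 and 0.019). On the other Snai2 probe set the changes were 0.96 and 0.63 (adjusted p = 0.00758 and 0.058 over all probe sets). Neither Lfng, Notch2 nor Notch3 had this motif in the window shown. The part of these cells and genes in the changes of Notch2, Notch3 and Lfng was not tested.

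**Figure D3:**
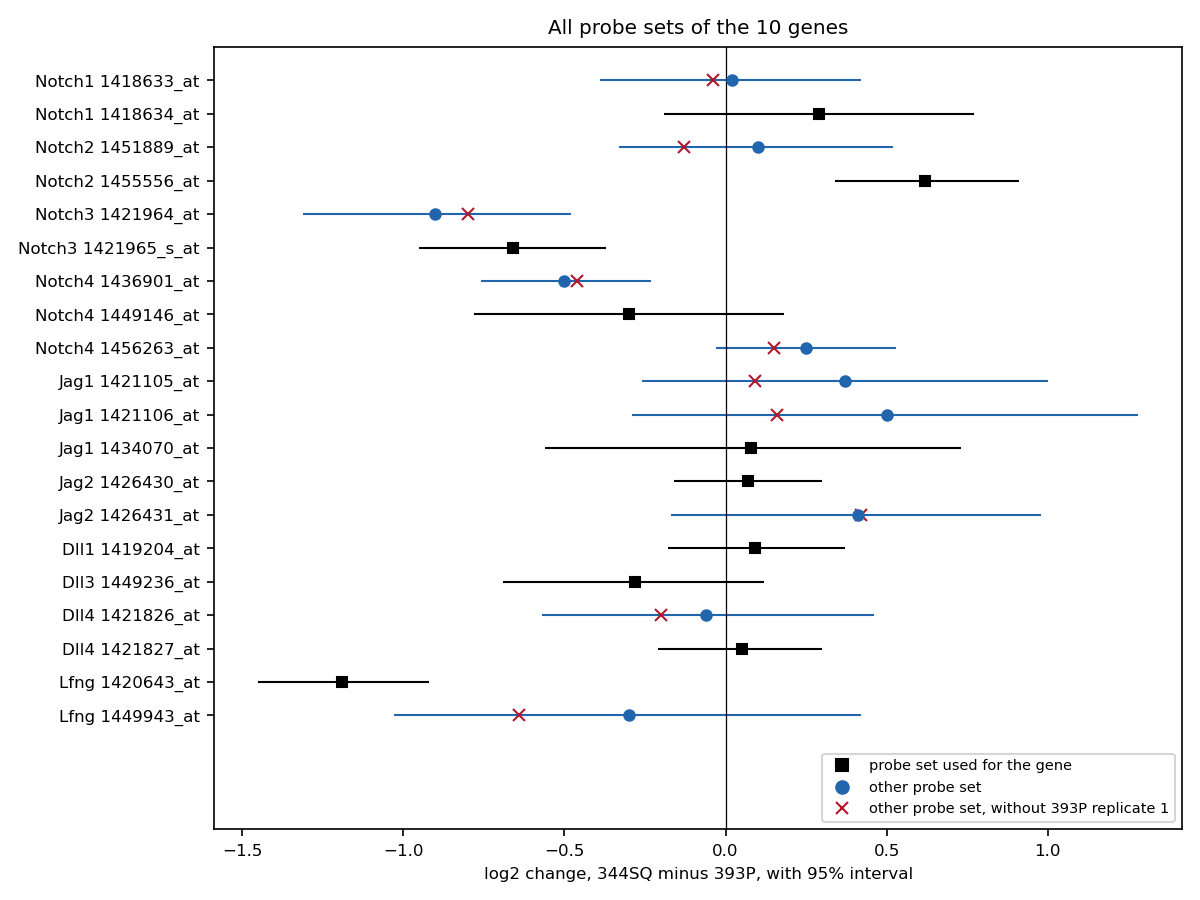
Log2 change in 344SQ against 393P at all 20 probe sets of the 10 genes, with 95% intervals; squares are the probe sets used for the genes, circles the others, and crosses the others without 393P replicate 1. Both Notch3 probe sets lie below 0 with intervals that exclude it, while the other probe sets of Notch2 and Lfng have intervals that include 0.

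Of the 10 other probe sets, 2 were called in 344SQ against 393P (Notch3 and Notch4), 0 against 393LN and 1 in 393LN against 393P (Notch4), where limma called 7.62%, 7.42% and 1.81% of all probe sets. Replicate 1 of 393P was the lowest 393P array at 6 of the 10 other probe sets and at 1 of the 10 chosen ones. Without it, 1, 0 and 0 of the other probe sets were called, against 7.91%, 10% and 1.63% of all probe sets.

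The rest of the pathway was read from 6 lists with 69 measured genes. In 344SQ against 393P 5 of these rose and 2 fell, which is 10.1% against 10.5% of all genes. Against 393LN 1 rose and 1 fell (2.9% against 10.9%), and in 393LN against 393P 1 fell (1.45% against 2.45%). The first count was 8 without 393P replicate 1. The count against 393LN was 5 without 393LN replicate 1 and 1 without 344SQ replicate 2 or 393LN replicate 2. The median log2 changes were 0.03, 0.04 and 0.01.

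Of 15 measured genes of the nuclear complex, 2 rose and 1 fell in 344SQ against 393P and 0 was called otherwise. The gene that fell was Rbpj, through which all canonical Notch signals act. Rbpj was at 11.89, 11.81, 11.93 and 11.94 in 344SQ, 12.11, 12.06, 11.96 and 12.17 in 393LN and 12.22, 12.31, 12.41 and 12.47 in 393P. On this probe set no line overlapped another, in the same order as for the chosen probe set of Lfng. Its log2 change was -0.47 ± 0.09 SE in 344SQ against 393P (limma adjusted p = 0.00705, at most 0.0258 without any 1 array). Against 393LN it was -0.18 (adjusted p = 0.244).

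All 3 Rbpj probe sets were called lower in 344SQ than in 393P, with log2 changes of -0.47, -0.80 and -0.61 (adjusted p over all probe sets 0.0107, 0.000817 and 0.00288). Both other probe sets, 1418114_at and 1454896_at, were also called lower in 344SQ than in 393LN (changes -0.50 and -0.64, adjusted p = 0.0155 and 0.00281). On both, 393LN and 393P overlapped, with changes of -0.30 and 0.02 in 393LN against 393P (adjusted p = 0.201 and 0.957). With the mean of all its probe sets, Rbpj passed against 393LN (log2 change -0.44, adjusted p = 0.00465).

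The coactivator gene Maml1 rose by 0.40 (limma adjusted p = 0.0387), but not when 344SQ replicate 1, 2 or 3, 393LN replicate 4 or 393P replicate 2, 3 or 4 was removed (adjusted p from 0.0529 to 0.104), nor with the mean of its probe sets (0.129). Of the other Maml1 probe sets, 1452188_at was called higher in 344SQ than in 393P (0.45, limma adjusted p = 0.0324 over all probe sets). The dim 1441697_at was not called (0.11). Tle3, a Groucho corepressor gene, rose by 0.53 (adjusted p = 0.014, and 0.201 with the mean of its probe sets).

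Among the endocytosis and ubiquitin regulators, 2 of 17 rose in 344SQ against 393P and 1 against 393LN, where 4.86% and 3.99% of all genes were higher. Mib1, the ligase that drives ligand endocytosis and so the pull on the receptor, was at 11.37, 11.55, 11.48 and 11.14 in 344SQ, 11.04, 10.69, 11.05 and 10.61 in 393LN and 10.51, 10.68, 10.73 and 10.59 in 393P. All 344SQ samples were above all others. The log2 change was 0.76 ± 0.13 SE against 393P (limma adjusted p = 0.00334) and 0.53 ± 0.13 against 393LN (adjusted p = 0.0227). The call against 393LN ended without 344SQ replicate 2 or 3 or 393LN replicate 2 or 4 (adjusted p from 0.0575 to 0.0714). Its dimmer probe sets had changes of 0.45 and 0.14 against 393P, and with the mean of the 3 the adjusted p was 0.074. Against 393LN it was 0.193 with that mean and 0.0537 when only the 8 arrays compared were fitted. Nedd4, another ubiquitin ligase gene, rose by 0.63 against 393P (adjusted p = 0.00821, and 0.0786 with the mean of its probe sets).

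Of the 5 genes of receptor glycosylation beside Lfng, 1 rose, where 4.86% of all genes were higher: Rfng, a second Fringe enzyme, by 0.39 in 344SQ against 393P (limma adjusted p = 0.0335). Its level was 9.53, 9.42, 9.47 and 9.36 in 344SQ, 9.02, 9.28, 9.41 and 9.38 in 393LN and 9.10, 8.99, 9.00 and 9.13 in 393P. The 344SQ samples were above those of 393P and overlapped 393LN. The call ended without 344SQ replicate 1, 2 or 3 or 393P replicate 2, 3 or 4 (adjusted p from 0.052 to 0.0902), and with quantile normalization (0.0606) or the mean of its probe sets (0.0882). With the probe set of largest variance, none of Mib1, Nedd4, Maml1, Tle3, Rfng and Cdkn1a was called in 344SQ against 393P. Their log2 changes were 0.45, 0.59, 0.11, 0.54, 0.39 and -0.85 in that order (limma adjusted p from 0.0515 to 0.84). Rbpj was called in this setting (adjusted p = 0.00118). None of the 8 measured genes of receptor cleavage was called in comparisons with 344SQ, where 10.5% and 10.9% of all genes were. Psenen, a gamma-secretase subunit gene, fell by 0.45 in 393LN against 393P (limma adjusted p = 0.041), but it did not pass when any 1 of the 12 arrays was left out (adjusted p from 0.0504 to 0.113). The 10 non-canonical ligands gave 0 calls in any comparison, where 10.5%, 10.9% and 2.45% of all genes were called.

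**Figure D4:**
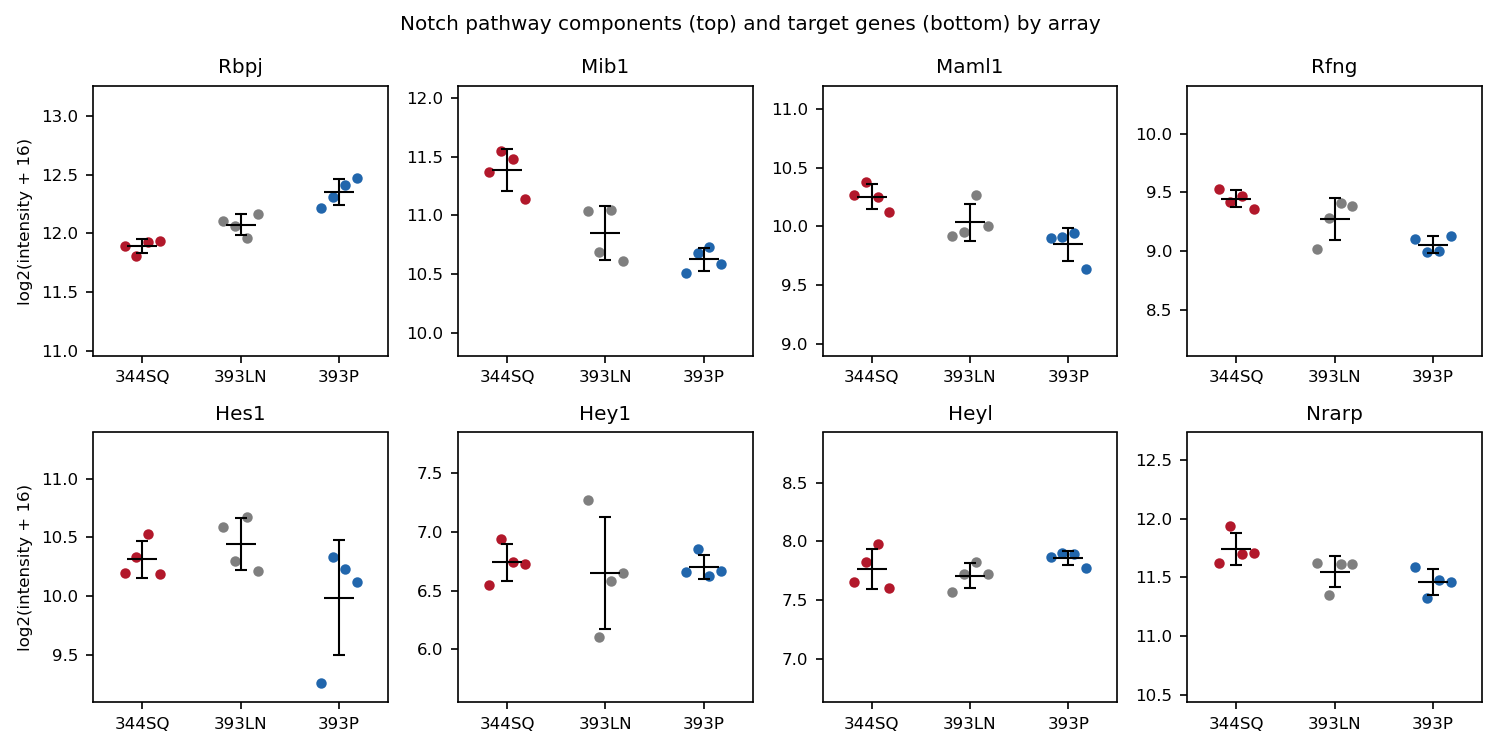
Level, log2(intensity + 16), of 4 pathway components (top) and 4 target genes (bottom) on every array, by line, with the mean as a bar and the SD as whiskers (n = 4). Rbpj is lowest and Mib1 highest in 344SQ, while the target genes Hes1, Hey1 and Heyl overlap between lines.

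Of 14 target genes, 1 fell in 344SQ against 393P and 1 against 393LN, and 0 was called in 393LN against 393P. Of all genes 10.5%, 10.9% and 2.45% were called, so these counts lie near the share of all genes. Hes1, a repressor gene and the best known Notch target, was at 10.20, 10.33, 10.53 and 10.19 in 344SQ, 10.59, 10.30, 10.67 and 10.21 in 393LN and 9.26, 10.33, 10.23 and 10.12 in 393P. Its lines overlapped, with 393P replicate 1 far below the rest, and the log2 change in 344SQ against 393P was 0.33 with all arrays (limma adjusted p = 0.406) and 0.08 without that replicate (0.78). Nrarp, a feedback inhibitor of the pathway, was at 11.62, 11.94, 11.70 and 11.71 in 344SQ, 11.62, 11.35, 11.61 and 11.61 in 393LN and 11.59, 11.32, 11.48 and 11.46 in 393P. The 344SQ samples were above those of 393P, by 0.28 (adjusted p = 0.132), which did not pass, while its other probe set, 1417986_at, had a change of -0.51 (adjusted p = 0.316). Hey1 and Heyl, further target repressors, had changes of 0.04 and -0.09 against 393P (adjusted p = 0.936 and 0.668).

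The targets that were called were Cdkn1a and Myc, and the part of Notch signals in their changes was not tested. Cdkn1a, the cell cycle inhibitor p21, fell by 0.79 in 344SQ against 393P (limma adjusted p = 0.00957). Myc, a transcription factor gene of cell growth, was at 11.28, 11.49, 11.52 and 11.56 in 344SQ and 12.23, 13.02, 13.01 and 12.63 in 393LN, a log2 change of -1.27 ± 0.27 SE (adjusted p = 0.0113). In 393P it was at 10.93 on replicate 1 and 12.08 to 12.29 on the others. The change against 393P was -0.39 with all arrays and -0.69 without that replicate (adjusted p = 0.0338).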

How the data were processed

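Total RNA from 12 tumour samples was hybridised to 1-colour Affymetrix arrays, 4 per line. The deposited table holds probe set intensity values on a linear scale with a floor of 1, normalized by the authors in a way not given in the sources used here. Every value (100%) is 2 to a power with 2 decimals. The table has 45101 probe sets, more than the chip named in the design text holds. Controls (64), probe sets with several symbols (932) and those with none were not used; names are from GEO's platform annotation, and updating them through Entrez identifiers changed 0. No other columns of values were present (0).

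Levels are log2(intensity + 16). Lines were compared with limma 3.58.1 (lmFit, eBayes, 9 residual degrees of freedom) in R 4.3.3, two-sided, with Benjamini-Hochberg adjustment over 18193 genes. Adjusted p of other probe sets are over 34945. The script was tested on simulated data. Members and lists were chosen with earlier results of these data known. Of the lists, called genes could be named, at most 6 a list by size of change, plus Hes1, Hey1, Heyl, Nrarp and Rbpj. Of 154 list entries 146 were measured. Alternatives were scaling, pseudocount, a filter on dim genes, the choice of probe set, the arrays in the fit, the variance model and leaving out each array. The number of arrays limits the precision.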

Additional observations from a re-analysis of the deposited data

Results flagged for a closer look

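Of 30 groups of 4 arrays (10 genes in 3 lines), 1 held a sample far from the other 3. Jag2 was at 9.75 on 393LN replicate 3 and at 9.55 to 9.58 on the other 393LN arrays. Chance alone gives about 1 such group in 20. The distance is small on the log2 scale, and no comparison of Jag2 passed the test with or without that array.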

How the results depend on the processing

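The number of the 10 genes called in 344SQ against 393P was 3, and 3 with each array left out in turn; it was 2 to 3 under the other alternatives. In 344SQ against 393LN it was 2, from 1 to 2 with an array left out, and 1 with the mean of all probe sets of a gene or with the probe set of largest variance. In 393LN against 393P it was 0 under all settings run. Over all genes the calls were 1907, 1984 and 446. With an array left out they ranged from 1259 to 1932, from 1167 to 2481 and from 156 to 438. The lowest came without 393P replicate 3, 344SQ replicate 2 and 393P replicate 3, and the third count was 174 when only the 8 arrays compared were fitted. Of 657 single results of the 10 genes under an alternative, 649 kept their side of the threshold, 8 lost their call and 0 reversed, while 20 uncalled changes crossed 0. The lost calls were those of Lfng with the probe set of largest variance (log2 change -0.30 against 393P and -0.58 against 393LN, adjusted p = 0.694 and 0.334) and those of Notch2 against 393LN. The call of Notch2 ended with the mean of its probe sets (0.25, adjusted p = 0.145) and in 5 settings that left an array out. Genes of the 6 pathway lists called in 344SQ against 393P numbered 7, but 3 with the mean of probe sets and 2 with the probe set of largest variance, and 5 to 8 with an array left out. Against 393LN they numbered 2, and 1 to 5 both with an array left out and under the other alternatives. In 393LN against 393P the 1 call ended with each array left out. Leaving out arrays at the other probe sets was an alternative chosen after seeing the data. No paired analysis was possible because the labels give no replicate numbers that the lines share. Dim probe sets, such as that of Dll3, can show little.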

Other observations

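The genes most like each changed member over the 12 arrays, among 12588 others with a mean level of at least 7, are given as a description. The 12 arrays fall into 3 lines, so a gene picked for likeness to a called member tends to differ between the same lines. Changes of the picked genes follow from that choice and are given without a test. For Lfng the genes were Pex26, Slc44a4 and Immt (Pearson r of 0.968, 0.964 and 0.956). Slc44a4, a choline transporter family gene, read 6.72 to 7.33 in 344SQ, 8.43 to 9.85 in 393LN and 9.20 to 9.57 in 393P. Its log2 change in 344SQ against 393P was -2.30. For Notch2 they were Rbm27, S100a13 and Arfgef2 (r of 0.980, 0.972 and 0.960). Arfgef2, which activates ARF proteins of vesicle traffic, had a log2 change of 1.01 in 344SQ against 393P. For Notch3 they were Romo1, Drosha and Smdt1 (r of 0.961, 0.959 and 0.944). Drosha, the nuclease that starts microRNA processing, had a log2 change of -0.50 in 344SQ against 393P.

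The target gene Nrarp has a second probe set, 1417986_at, that went the other way from the first: its log2 change in 344SQ was -0.51 against 393P, where that of the first was 0.28, and against 393LN it was -0.85 (adjusted p = 0.0778 over all probe sets), where that of the first was 0.19. Neither passed.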
